A study of Mus musculus with 7 samples.

Results

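The 10 genes of the mu, pi and microsomal classes of glutathione transferases were followed in TRAMP-C1 cells that carried the PAX8-NFE2L2 fusion, an empty vector or neither. These are Gstm1 to Gstm6 of the mu class, Gstp1 of the pi class and Mgst1 to Mgst3 of the microsomal class. They were taken as a fixed list of 10 symbols, and all 10 were found among the 46603 gene rows of the count tables. TRAMP-C1 is a mouse prostate tumour line, labelled prostate epithelial, of the strain C57BL/6-TgN(TRAMP)8247Ng, in which a transgene drives prostate tumours, and all 7 libraries come from it. Polyadenylated RNA was sequenced in 50 bp single-end reads from 3 libraries of cells with the fusion, 3 with the matching empty vector and 1 library labelled WT, for which no vector is given. Cells were exposed to concentrated Lv229 lentivirus for 12 h and grown for another 24 h after a change of medium, with no selection step described. Whether replicates are separate cultures is not labelled, and p-values cover the spread among these libraries alone, some or all of which may be technical.

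Glutathione transferases join the tripeptide glutathione to reactive electrophiles, which makes these compounds soluble and ready for export. The mu and pi enzymes are cytosolic dimers, while the microsomal enzymes are membrane proteins of the unrelated MAPEG family, some of which also handle leukotrienes or reduce lipid peroxides. Several transferase genes are textbook targets of NRF2, the product of NFE2L2, which with small MAF proteins binds the antioxidant response element, and pi-class transferase is a well-known gene of prostate cancer because its promoter is often methylated there in human tumours.

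Gene counts per library lay between 26368182 and 59597170. Replicates 3 of both groups were run in lanes of their own, and 45.32% and 44.78% of their total were reads with several alignments, against 36.1 to 38.89% in the other 5 libraries. Such reads are not counted under a gene. The construct's marker gene Pax8 lay at 0.0334 to 0.217 CPM (a library's counts scaled to a common total) with empty vector (0.0401 CPM for WT), and every fusion library was higher, at 5.57 to 8.53 CPM. Mouse Nfe2l2 lay at 111 to 125 CPM with empty vector and 123 to 145 CPM with the fusion (120.0 CPM for WT). Of the defining prostate epithelial markers, Krt8 lay at 1.21 ± 0.618 CPM and Epcam at 0.24 ± 0.251 CPM (SD, n = 3) with empty vector and Pbsn at 0, so these 3 markers of the labelled cell type were low or not detected. The mesenchymal filament gene Vim lay at 3000.0 ± 389 CPM. Of the 7 prostate epithelial markers tested, 2 rose with the fusion, and 3 with the block described below, and 0 fell. Over all tested genes 1.69% rose, and 7.63% with the block. The 2 were Krt18, from 0.83 ± 0.542 to 5.92 ± 1.95 CPM, and Foxa1, from 0 to 1.54 ± 0.981 CPM, so both stayed low. Foxa1 had 0 reads with empty vector and could only be called higher. Summed CPM of 6 mesenchymal markers were 9850 to 18600 with empty vector and 11000 to 17500 with the fusion, with 0 of 6 past the test and 1, Cdh2, past it with the block (71.0 ± 28.7 and 136 ± 39.0 CPM, edgeR adjusted p = 0.0022). Markers of immune cells (1.52 to 2.67 and 2.02 to 3.35 CPM), endothelium (0.412 to 0.735 and 0.591 to 0.751 CPM) and liver (0 to 0.0241 and 0 to 0.0549 CPM) were low in both groups, with the immune markers Adgre1 and Cd3e at 0. The part of these markers in the results below was not tested.

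Promoter sequence of 4 members is shown first, because Gstm1 and Gstp1 are the members that passed the test without pairing, Mgst1 passed once replicate numbers were used as pairs, and Gstm5, first among the members by level with empty vector, passed in neither. All are 5′ to 3′ on the gene's strand, from RefSeq on GRCm38.p6. For Gstm1 the 250 bases before its start 1 are given, and for the others 29 bases around the match named below. Capitals mark matches, on either strand, to the loose core of the antioxidant response element, TGANNNNGC, which takes in the strict core TGACNNNGC. The Gstm1 sequence has no capitals because it holds no match.
Gstm1 (chr3:108017974-108018223, minus strand): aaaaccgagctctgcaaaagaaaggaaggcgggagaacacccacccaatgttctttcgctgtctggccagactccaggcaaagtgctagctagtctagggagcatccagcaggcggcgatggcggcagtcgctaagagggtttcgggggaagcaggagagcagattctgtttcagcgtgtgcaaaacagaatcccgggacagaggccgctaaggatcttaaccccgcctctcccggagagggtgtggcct
Gstp1 (chr19:4037968-4037996, minus strand): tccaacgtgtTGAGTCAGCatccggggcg
Mgst1 (chr6:138140461-138140489, plus strand): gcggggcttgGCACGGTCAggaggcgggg
Gstm5 (chr3:107895802-107895830, plus strand): caccgcccacTGACCACGCggagggcggg

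All 10 members had a promoter entry, 15 windows in all, each searched from 250 bases before to 50 after the start. The strict core stood in 2 of the 15 windows (13.3%), and in 12.4% of all 32851 promoters of the same length. The loose core stood in 6 of the 15 (40.0%), from 5 members, and in 41.3% of all promoters. Gstp1 held TGAGTCAGC with its first base 74 bases before the start, and 2 further loose matches. Mgst1 held the strict core on the other strand (TGACCGTGC, leftmost base 56 before the start), and Gstm5 held it on the gene's own strand (TGACCACGC, first base 42 before the start). These starts are those of the promoter entries and differ from the gene ends of GENCODE M21, used for the gene coordinates below. By the latter the Mgst1 stretch shown lies inside the gene, which begins at 138140316. The stretches of Gstp1 and Gstm5 reach into theirs. Neither window of Gstm1 held a match, nor did those of Gstm2, Gstm6, Mgst2 and Mgst3. A match is a description of these letters and no evidence of binding, and windows without one say nothing of elements elsewhere.

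**Figure D1:**
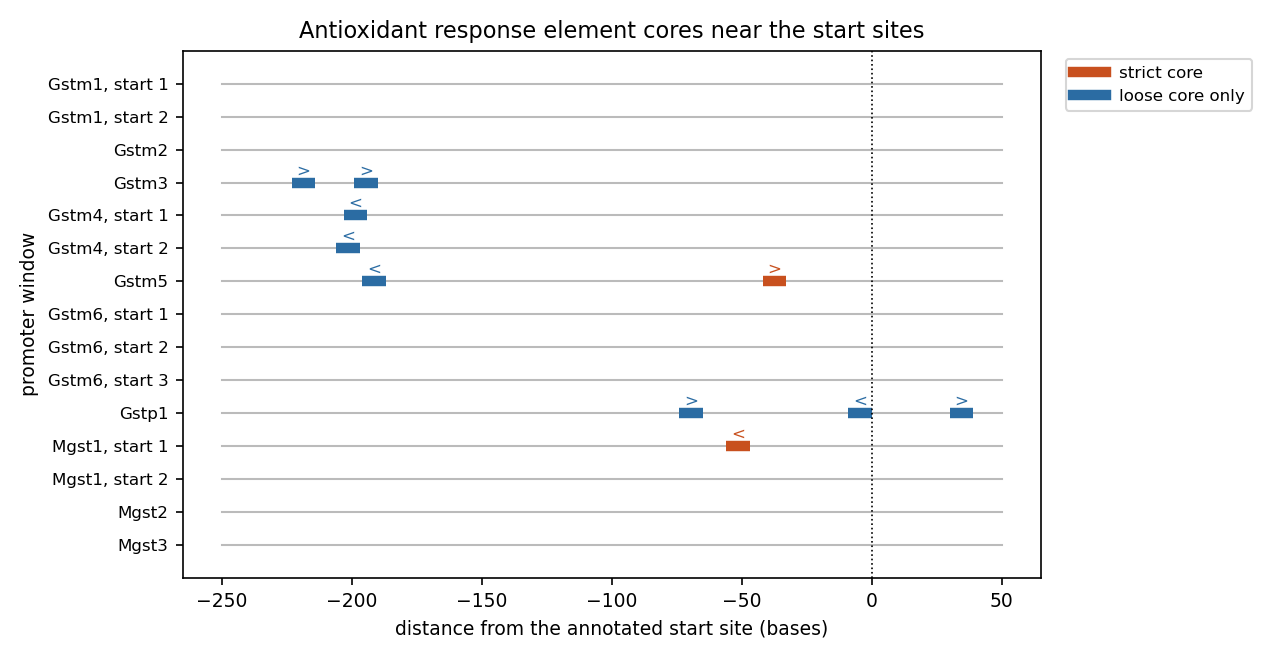
Matches to the antioxidant response element core in the 15 promoter windows of the 10 members, by distance from the annotated start site in bases; orange bars are the strict core, blue bars the loose core only, and arrowheads give the strand. The strict core is seen in 2 windows, Mgst1 start 1 and Gstm5, and the 2 Gstm1 windows are empty.

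The members differ in how much of their sequence is their own, which sets how many of their reads could be counted. Of the distinct 50-base windows in the annotated transcripts, 33.7% of Gstp1's recurred exactly in another gene's transcripts (33.7% in Gstp2 and 20.3% in the pseudogene Gstp-ps). The share was 28.8% for Gstm3, 18.9% for Gstm1 (14.1% with the pseudogene Gstm2-ps1 and 8.16% with Gstm3), 9.44% for Gstm5 (all with 4933431E20Rik, which overlaps it on the other strand), 5.97% for Gstm6 and 5.65% for Gstm2. It was 0.475% for Mgst2 and 0 for Gstm4, Mgst1 and Mgst3. Levels of the first 6 are therefore uncertain, and because the strand setting of the counting is not given, reads from the stretch where Gstm5 and its antisense neighbour overlap cannot be told apart. Of the genes that share these windows, Gstm2-ps1 averaged 9.3 CPM with empty vector and 36.1 CPM with the fusion, while Gstp2 lay at 0.103 ± 0.0676 CPM with empty vector and 0.074 ± 0.0628 CPM with the fusion. The paralog Gstm7, which shares no window with a member, lay at 0.818 ± 0.22 and 0.768 ± 0.324 CPM.

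Ranked by level per length (RPKM, CPM per kilobase of the union of exons), Gstm5, the mu-class gene at one end of the cluster and on the other strand from the rest, stood first with empty vector at 50.2 ± 16.3 RPKM. Gstp1 (28.4 ± 3.18), Gstm1 (28.0 ± 7.37), Mgst3 (25.4 ± 6.34), Gstm2 (16.4 ± 3.23) and Mgst1 (12.7 ± 4.67 RPKM) followed. Among these, neighbours in rank overlapped in the range of their libraries, so the order of neighbours is not resolved. The lowest libraries of Gstp1, Gstm1 and Mgst3 (25.0, 19.6 and 18.8 RPKM) lay above the highest of Mgst1 (17.5 RPKM). Those of Gstp1 and Gstm1 also lay above the highest of Gstm2 (19.5 RPKM), Gstm1 by little. Mgst2 (3.12 ± 1.57) and Gstm4 (2.15 ± 0.589 RPKM) lay below all of these and overlapped each other, then came Gstm6 (0.507 ± 0.269) and Gstm3 (0.0165 ± 0.0186 RPKM). The WT library gave 46.4 RPKM for Gstm5, 32.8 for Gstm1, 30.5 for Mgst3 and 28.4 for Gstp1, and less for the others. With the fusion Gstm1 stood first at 104 ± 19.7 RPKM, and its lowest library lay above the highest of Gstp1, next at 58.2 ± 9.14 RPKM. Gstm5 came next at 48.4 ± 13.6 RPKM. With the longest transcript as length, Gstm5 and Gstp1 overlapped with empty vector (59.3 ± 19.3 and 53.6 ± 6.0 RPKM), and Gstm1 and Gstp1 with the fusion (119 ± 22.5 and 110 ± 17.2 RPKM).

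**Figure D2:**
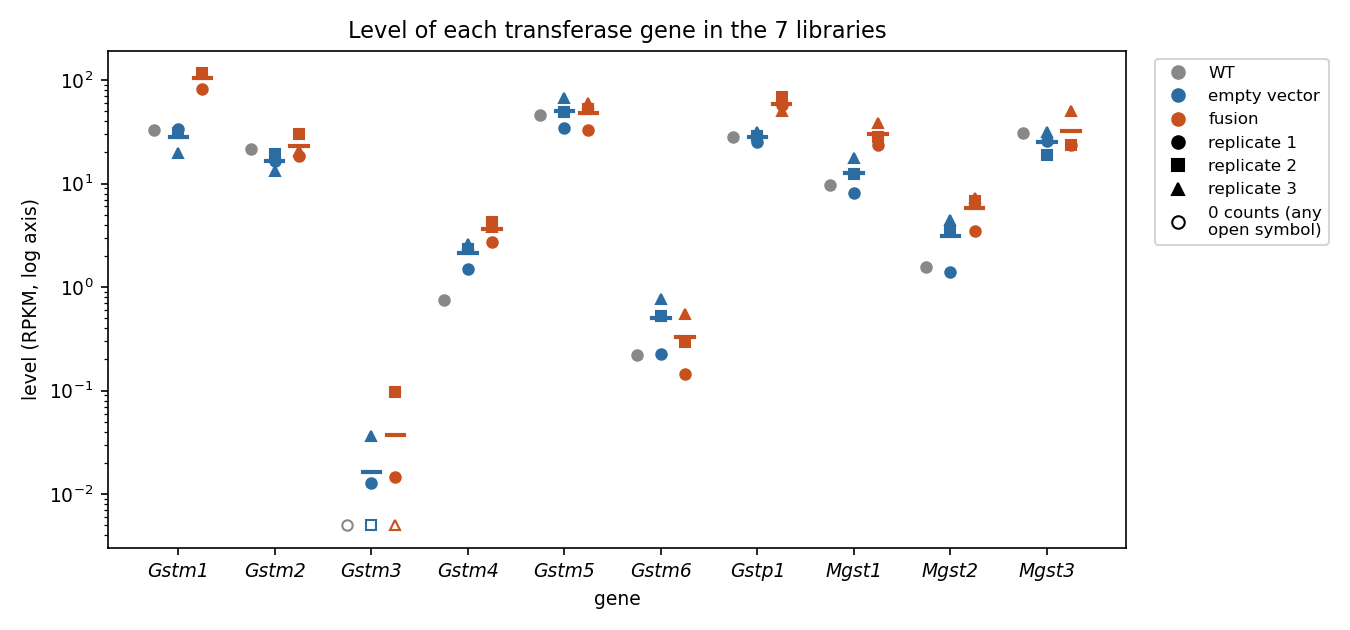
Level of each of the 10 genes in RPKM on a log axis, 1 symbol a library (grey WT, blue empty vector, orange fusion; symbol shape gives the replicate number) with bars at the mean of 3; libraries with 0 counts are open symbols drawn at the foot of the axis. Gstm1 moves from 28.0 RPKM with empty vector to 104 with the fusion, while the Gstm5 groups lie over each other.

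The series was designed to ask what expression of the fusion transcript changes relative to empty vector. Of the 10 members 2, Gstm1 and Gstp1, rose with the fusion and 0 fell, where 1.69% of 16731 tested genes rose and 0.353% fell (quasi-likelihood F test in edgeR, p adjusted by Benjamini-Hochberg over all tested genes, threshold 0.05). All but Gstm3 passed the filter on low counts. The 9 tested members had a median log2 fold change of 0.75, against 0.009 over all tested genes. The 3 fusion libraries lay wholly above the 3 empty vector libraries in CPM for 4 members (Gstm1, Gstm4, Gstp1 and Mgst1), as did 9.15% of tested genes, and wholly below for none, as did 6.65%. Samples of the same replicate number deviated together across genes, so a fit with the number as a block was also used. In it 5 members rose (Gstm1, Gstm4, Gstp1, Mgst1 and Mgst2) and 0 fell, where 7.63% of genes rose and 5.5% fell. With replicates 1, 2 or 3 left out of it, 5, 1 (Mgst1) and 6 members rose, against 4.83%, 1.51% and 11.2% of genes, and 0 members fell, against 4.05%, 0.616% and 8.38%. These were not the same members: without replicates 1 Gstm2 passed (edgeR adjusted p = 0.031) and Gstm4 did not, and without replicates 3 Gstm2 joined the 5 (0.045). DESeq2 and edgeR with no filter on low counts each raised the count of risers to 3 by adding Mgst1 (3.72% and 1.47% of genes rose, 1.79% and 0.491% fell), and the libraries numbered 1 and 2 alone, which share their lanes, gave the same 2 members (1.58% of genes rose and 0.335% fell).

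Gstm1, the major mu-class enzyme of mouse liver (ENSMUSG00000058135.11, chr3:108012255-108017973, minus strand), gave 49.1, 45.7 and 28.8 CPM in replicates 1, 2 and 3 with empty vector, 120.0, 171 and 169 CPM in those with the fusion and, in the WT library, 48.4 CPM. All 3 fusion libraries lay above every other library. Its log2 fold change was 1.89 (SE 0.27, 95% interval 1.28 to 2.51, edgeR adjusted p = 0.012), and 1.91 with the replicate block (adjusted p = 0.018). Within replicate numbers 1, 2 and 3 the log2 ratio was 1.28, 1.90 and 2.55, and empty vector replicate 3 was the lowest of the controls. The call ended without empty vector replicate 2 (edgeR adjusted p = 0.054) and without fusion replicate 2 (0.051), and held in the 4 other fits that left out 1 library. With the block it ended when replicates 2 were left out (1.89, edgeR adjusted p = 0.10). With the libraries numbered 1 and 2 alone, the log2 fold change was 1.62 (edgeR adjusted p = 0.032).

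Gstp1, the pi-class gene with most reads here (ENSMUSG00000060803.5, chr19:4035407-4037985, minus strand), gave 38.7, 44.7 and 48.5 CPM in replicates 1, 2 and 3 with empty vector, 88.2, 105 and 77.1 CPM in those with the fusion and, in the WT library, 44.0 CPM. The groups did not overlap, and the WT library fell among the empty vector libraries. Its log2 fold change was 1.04 (SE 0.20, 95% interval 0.57 to 1.5, edgeR adjusted p = 0.045), and 1.03 with the replicate block (adjusted p = 0.0060). Without the block the call ended when any 1 library other than fusion replicate 3 was left out: adjusted p = 0.13, 0.20 and 0.064 without empty vector replicates 1, 2 and 3, and 0.14 and 0.17 without fusion replicates 1 and 2. With the block it ended when replicates 2 were left out (0.91, edgeR adjusted p = 0.080). Numbers 1 and 2 alone gave 1.22 (edgeR adjusted p = 0.039).

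Mgst1, an abundant microsomal transferase of the endoplasmic reticulum and outer mitochondrial membrane (ENSMUSG00000008540.10, chr6:138140316-138156755, plus strand), gave 16.5, 24.8 and 35.2 CPM in replicates 1, 2 and 3 with empty vector, 47.2, 56.6 and 76.8 CPM in those with the fusion and, in the WT library, 19.7 CPM. The lowest library of each group was its replicate 1 and the highest its replicate 3, and the groups did not overlap. Without the block the log2 fold change was 1.24 (95% interval 0.51 to 1.97), short of the threshold (edgeR adjusted p = 0.12). It passed with the block at 1.28 (SE 0.11, adjusted p = 0.0016), with DESeq2 (adjusted p = 0.011) and in edgeR with no filter on low counts (0.038). Without the block it passed in 0 of the 6 fits that left out 1 library (edgeR adjusted p = 0.053 to 0.37). Numbers 1 and 2 alone gave 1.34 (edgeR adjusted p = 0.08). With the block the call held whichever number was left out (edgeR adjusted p = 0.0014, 0.029 and 0.00012 without replicates 1, 2 and 3).

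Mgst2, a microsomal enzyme that can also make leukotriene C (ENSMUSG00000074604.8, chr3:51660360-51682677, plus strand), gave 5.21, 12.8 and 16.6 CPM in replicates 1, 2 and 3 with empty vector and 12.8, 25.3 and 26.6 CPM in those with the fusion, with 5.73 CPM in the WT library. The groups overlapped, while within each number the fusion library was the higher. Without the block the log2 fold change was 0.90 (95% interval -0.13 to 1.93, edgeR adjusted p = 0.56), and it passed with the block at 0.98 (95% interval 0.63 to 1.33, adjusted p = 0.0094), where the call ended without replicates 2 (0.12). Mgst3, the third microsomal gene (ENSMUSG00000026688.5, chr1:167371966-167393841, minus strand), lay at 28.3, 20.6 and 34.5 CPM with empty vector, at 26.1, 25.6 and 54.5 CPM with the fusion and at 33.5 CPM in the WT library. Fusion replicate 3 was the highest, and the other 6 libraries lay between 20.6 and 34.5 CPM with the groups mixed. The test did not call it at a log2 fold change of 0.35 (95% interval -0.44 to 1.14, edgeR adjusted p = 0.90, and 0.28 with the block).

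The other mu-class genes lie with Gstm1 on one stretch of chromosome 3 (107895821 to 108044894, GRCm38), and none passed without the block. Gstm4 (ENSMUSG00000027890.16, chr3:108040408-108044894) lay at 2.54, 3.97 and 4.48 CPM with empty vector, at 4.63, 7.29 and 6.55 CPM with the fusion and at 1.28 CPM in the WT library, the lowest of the 7. The fusion libraries lay above the others by little, since fusion replicate 1 exceeded empty vector replicate 3 by less than the spread within either group. Its log2 fold change was 0.75 (95% interval 0.02 to 1.48, edgeR adjusted p = 0.43), and 0.76 with the block (adjusted p = 0.033), where the call ended without replicates 1 (0.15) and without replicates 2 (0.28). Gstm2 (ENSMUSG00000040562.11, chr3:107981702-107986453) lay at 27.8, 32.8 and 22 CPM with empty vector, at 31.1, 50.7 and 34.4 CPM with the fusion and at 36.1 CPM in the WT library. The WT library lay above 2 of the 3 fusion libraries, and the test did not call it at 0.49 (log2, 95% interval -0.09 to 1.08, edgeR adjusted p = 0.59, and 0.051 with the block).

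Gstm5 (ENSMUSG00000004032.9, chr3:107895821-107898686) gave 44.0, 63.0 and 85.7 CPM in replicates 1, 2 and 3 with empty vector, 42.4, 67.2 and 75.9 CPM in those with the fusion and, in the WT library, 59.3 CPM. The WT library, also numbered 1, lay between the libraries numbered 1 and those numbered 2 of the other groups. Among the empty vector and fusion libraries the replicate numbers separated the libraries and the groups did not. The log2 fold change was -0.05 (95% interval -0.77 to 0.66, edgeR adjusted p = 0.99), and with the block -0.04 with a 95% interval of -0.25 to 0.17 (adjusted p = 0.78). Gstm6 (ENSMUSG00000068762.10, chr3:107938847-107943749) was rare, at 0.451, 1.06 and 1.52 CPM with empty vector, 0.286, 0.586 and 1.08 CPM with the fusion and, in the WT library, 0.441 CPM. Within each number the fusion library was the lower, and the test did not call it at -0.66 (log2, 95% interval -2.02 to 0.70, edgeR adjusted p = 0.88, and 0.18 with the block). Gstm3 (ENSMUSG00000004038.9, chr3:107963696-107969283) had 3 reads in all with empty vector and 8 with the fusion, 7 of them in fusion replicate 2. The ratio of 3.08 had a 95% counting interval of 0.739 to 18.0, which covers counting error only, so no difference was detectable at this depth. The WT library had 0 reads of Gstm3, which allows up to 0.0601 CPM.

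**Figure D3:**
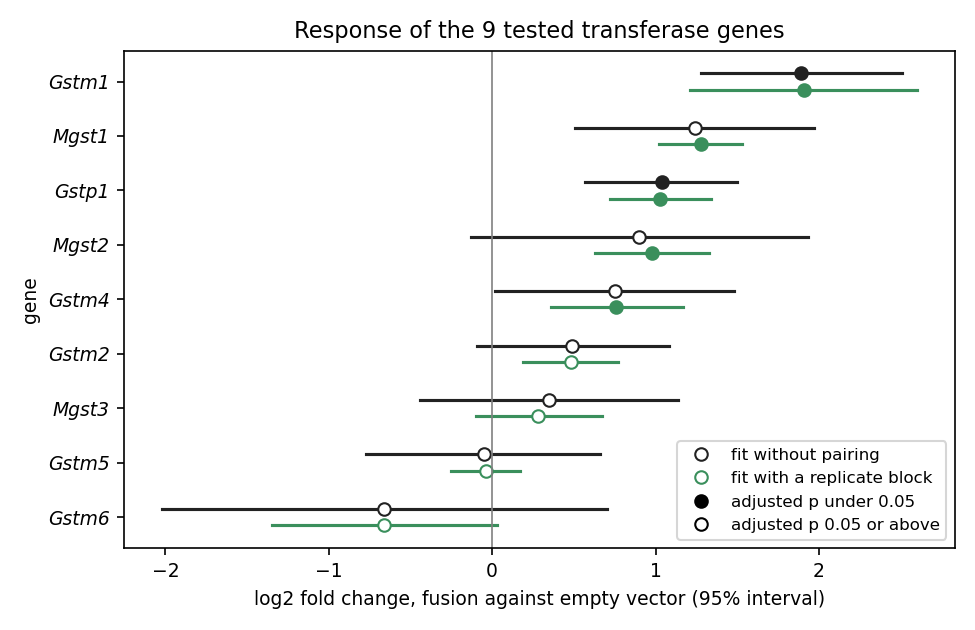
Log2 fold change of fusion against empty vector (horizontal axis) for the 9 tested genes, with 95% intervals, from the fit without pairing (black) and with a replicate block (green); filled symbols passed at adjusted p under 0.05. Gstm1 and Gstp1 are filled in both fits, Mgst1, Mgst2 and Gstm4 only with the block, and the block narrows the interval of Gstm5 around -0.04.

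Ordered by response, the members ran from Gstm1 (1.89) through Mgst1 (1.24), Gstp1 (1.04), Mgst2 (0.90), Gstm4 (0.75), Gstm2 (0.49) and Mgst3 (0.35) to Gstm5 (-0.05) and Gstm6 (-0.66), and the 95% interval of each overlapped that of the next. To test differences between members, the log2 ratio of each of the 36 pairs was taken within a library and compared between groups. In 14 pairs, many of which share a member, the ratios of the 2 groups did not overlap. The share of such pairs among all tested genes was not computed. Levels of single genes, a different measure, did not overlap in 9.15% (higher) and 6.65% (lower) of all tested genes. Gstm1 gained 1.96 on Gstm5 (from -0.62 ± 0.88 to 1.33 ± 0.17, SD, n = 3), 1.43 on Gstm2 (from 0.57 ± 0.23 to 2.0 ± 0.28) and 0.88 on Gstp1 (from -0.13 ± 0.56 to 0.76 ± 0.35), each on the log2 scale with an exact two-sided permutation p = 0.1, the smallest that 3 against 3 libraries allow, and 0.257 adjusted over the 36 pairs. The log2 ratio of Gstm5 to Mgst1 went from 1.35 ± 0.07 to 0.03 ± 0.20 (exact permutation p = 0.1). The ratio of Gstm1 to Mgst1 overlapped between the groups (difference 0.63, exact permutation p = 0.3).

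**Figure D4:**
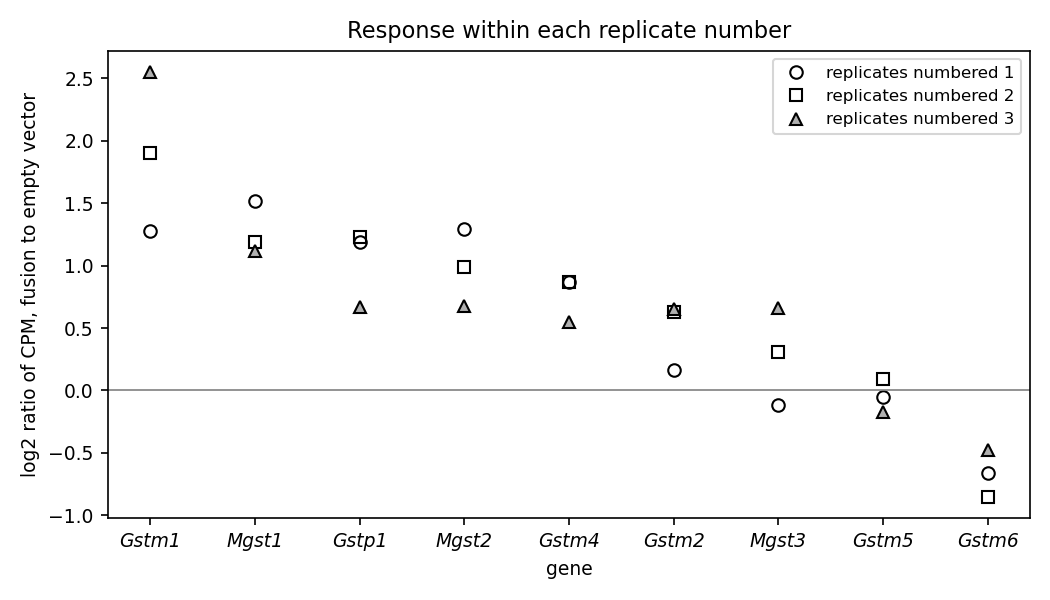
Log2 ratio of CPM, fusion to empty vector, within replicate numbers 1, 2 and 3 (symbols) for the 9 tested genes in order of response. The ratio is above 0 in all 3 numbers for Gstm1, Mgst1, Gstp1, Mgst2, Gstm4 and Gstm2, below 0 in all 3 for Gstm6, and on both sides of 0 for Mgst3 and Gstm5.

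The summed level of the 10 genes went from 146, 166 and 188 RPKM in empty vector replicates 1, 2 and 3 to 243, 330.0 and 344 RPKM in fusion replicates 1, 2 and 3, with 172 RPKM in the WT library. The groups did not overlap, at 1.83 times the mean (exact two-sided permutation p = 0.1, the smallest possible). Gstm1 made up 17.3 ± 6.29% of the sum with empty vector (22.8, 18.7 and 10.4% in replicates 1, 2 and 3) and 33.9 ± 1.05% with the fusion (33.3, 35.2 and 33.3%), against 19.1% in the WT library. The share of Gstm5 went from 29.6 ± 6.09% to 15.6 ± 1.85%, with no overlap, while its own level was 50.2 and 48.4 RPKM, so this restates the higher sum of the other members. Each of these differences had an exact permutation p = 0.1 (n = 3 a group). The mu class as a whole held 58.5 ± 3.47% and 58.4 ± 3.0% of the sum, a difference of -0.0277 percentage points (exact permutation p = 1.0). Gstp1 held 17.0 ± 0.361% and 19.5 ± 4.57%, and the microsomal class 24.5 ± 3.83% and 22.1 ± 5.09%, both with overlap (exact permutation p = 0.4 and 0.5).

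**Figure D5:**
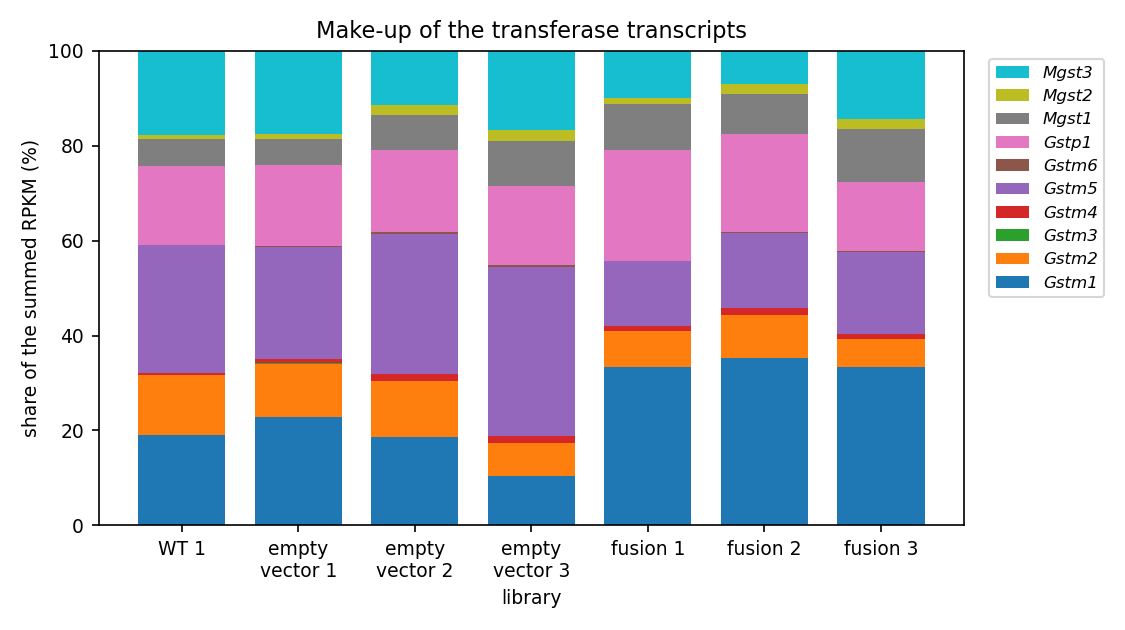
Share of each gene in the summed RPKM of the 10 genes, in percent, 1 bar a library. The Gstm1 segment takes 10.4 to 22.8% in the empty vector libraries and 33.3 to 35.2% in the fusion libraries, and the Gstm5 segment goes from 29.6% to 15.6% on average while its level is 50.2 and 48.4 RPKM and the sum is 1.83 times higher.

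Set against the single WT library, whose spread is assumed to be that of the other groups, no member passed in either direction in edgeR (at an unadjusted p under 0.05, 1 member, Gstm4, against empty vector and 5 members against the fusion, where 746 and 1284 of all tested genes did so). Empty vector against WT called 0 of 16731 genes (0%) in edgeR and, with DESeq2, 44 higher and 33 lower (0.263% and 0.197%) and no member among them; with no filter on low counts edgeR called 0.00729% higher and 0.0474% lower. Gstm4 had the largest difference, with a log2 fold change of 1.51 (95% interval 0.36 to 2.66, edgeR adjusted p = 0.91, DESeq2 0.17), then Gstm6 (1.18) and Mgst2 (1.01), while Gstp1 lay at 0.00 and Gstm1 at -0.23. Fusion against WT called 0.341% of genes higher and 0.0956% lower in edgeR, and 0.645% and 0.248% with no filter. For the members the log2 fold changes there were 2.26 for Gstm4 (edgeR adjusted p = 0.15), 1.91 for Mgst2 (0.51), 1.66 for Gstm1 (0.18), 1.61 for Mgst1 (0.32) and 1.04 for Gstp1 (0.29). DESeq2, which called 2.19% of genes higher and 0.789% lower, called Gstm4, Gstm1, Mgst1 and Gstp1 (adjusted p = 4.7e-04, 0.0034, 0.034 and 0.045). Comparisons that share libraries are given side by side and are not independent.

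Genes around the mu cluster and Gstp1 were also read. Within 250 kb of the ends of the mu cluster 16 other genes were tested, and 0 passed with or without the block (median log2 fold change 0.19, range -0.46 to 1.32). Within 250 kb of Gstp1, of 26 tested 0 passed without the block, while with it 3 rose, Aldh3b1, an aldehyde dehydrogenase (1.56, edgeR adjusted p = 0.0016), Cdk2ap2 (0.72, 0.0078) and Pitpnm1 (0.43, 0.020), and Unc93b1 fell (-0.78, 0.0070). Over all genes 1.69% rose and 0.353% fell without the block, and 7.63% and 5.5% with it, and whether these neighbours differ from other genes was not tested. The tested genes whose pattern over the 7 libraries was most like a member's were found by Pearson correlation of log2(CPM + 0.5). For Gstm1 they were the pseudogene Gstm2-ps1 (r = 0.999), with which it shares 14.1% of its windows and which went from 9.3 to 36.1 CPM, then Ppil2 (0.988) and Cat, catalase (0.986). For Gstp1 they were Cul9 (0.998), Snhg11 (0.998) and its neighbour Cdk2ap2 (0.997), and for Mgst1 they were Serpinb9 (0.994), Il1rl2 (0.989) and Gm35037 (0.987). These are descriptions over 7 libraries, in which 331, 377 and 248 genes exceeded r = 0.9, and they share depth and lane with the members.

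Among the 22 other glutathione transferases and MAPEG genes, 17 were tested, 5 rose and 0 fell (median log2 fold change 1.01), against 1.69% and 0.353% of all genes. With the block 7 rose and 2 fell, against 7.63% and 5.5% of all genes with the block. The 2 that fell were Gstcd and Alox5ap (log2 fold changes -0.31 and -1.29, edgeR adjusted p = 0.049 and 0.038). The risers without the block were 4 alpha-class genes, Gsta1, Gsta2, Gsta3 and Gsta4, and Hpgds, the sigma-class prostaglandin D synthase. Gsta1 and Gsta2 had 0 reads in every empty vector library, and Gsta3 and Hpgds had at most 5 in any. These 4 passed the filter on low counts only through the fusion libraries, so they could only be called higher. The count of risers and the median rest in part on them. The further risers with the block were Gstt1 and Gstt2. Gstt2 had at most 6 reads in any empty vector library and also passed the filter only through the fusion libraries. The count with the block and the median rest in part on Gstt2 as well. Gsta4, which acts on the lipid peroxidation product hydroxynonenal, gave 16 CPM on average with empty vector and 145 CPM with the fusion (log2 fold change 3.18, edgeR adjusted p = 8e-04), and Hpgds went from 0.0359 ± 0.043 to 4.58 ± 2.15 CPM (edgeR adjusted p = 0.0048). The theta-class Gstt1 went from 0.708 ± 0.571 to 4.85 ± 2.38 CPM (edgeR adjusted p = 0.14, and 0.0057 with the block). Gstt1 had 8, 40 and 53 reads in empty vector replicates 1, 2 and 3. The empty vector libraries alone would not have carried it through the filter on low counts. Of 15 tested genes of glutathione supply 4 rose and 0 fell (6 and 1 with the block). Those 4 were Gclm (2.10, edgeR adjusted p = 0.0081) and Gclc (1.66, 0.016), the modifier and catalytic subunits of glutamate-cysteine ligase, Slc7a11, the cystine importer (1.39, 0.037), and Ggt5, a gamma-glutamyltransferase (4.48, 0.0094). Ggt5 lay at 0.179 ± 0.12 CPM with empty vector and also passed the filter only through the fusion libraries. Of 9 tested genes for export and processing of conjugates 2 rose and 0 fell (4 and 0 with the block), the exporters Abcc3 (2.91, edgeR adjusted p = 0.0061) and Abcc4 (2.83, 0.011).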

How the data were processed

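Counts were deposited as whole reads per gene, with a table for every lane. STAR, HTSeq and the build GRCm38 are what the authors used, per the submitters' processing notes; tool versions, annotation release and whether counting used strand were not given in the sources used here. The 12 lane tables were summed to 7 libraries, because lanes of 1 library agreed within sampling noise (chi-square over degrees of freedom between 0.9785 and 1.01). Reads not assigned to a gene were left out of library sizes: 36.1 to 45.32% (multiply aligned), 5.73 to 6.93% (outside genes) and 1.22 to 1.48% (ambiguous) of each total. Positions and lengths came from GENCODE M21. Symbols came from a separate list of gene names, which gave 46005 of 46603 rows a symbol.

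The fusion was compared with empty vector by edgeR 4.0.16 in R 4.3.3 over 16731 genes (filterByExpr, minimum count 10, TMM, robust quasi-likelihood F test, Benjamini-Hochberg at 0.05), and WT in the same way over all 7 libraries. The standard error is the log2 fold change divided by the square root of F. CPM use TMM factors over 7 libraries. Alternatives were DESeq2 1.42.0, RLE factors, no filter, no robust step, a replicate block, subsets of libraries and other lengths. The edgeR step was run on simulated counts with known changes, less spread than these data and no effect of replicate number. That run checks the code and does not give error rates for these libraries. Deviations from group means correlated within replicate numbers 1, 2 and 3 (r = 0.509, 0.462 and 0.431 over genes), so the numbers were taken to pair samples; no label names a shared batch. Named genes were the 10 members, genes of 3 lists that passed or share sequence, neighbours within 250 kb that passed, and the 3 most alike. Members, lists and tests were chosen with earlier results of these data known; one listed alias, Ccbl1, had no row. Some prostate epithelial markers, and the sum over that list, are not reported here.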

Additional observations from a re-analysis of the deposited data

How the results depend on the processing

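The number of members that rose with the fusion was 2. It was 5 with the replicate block, and 5, 1 and 6 with the block when number 1, 2 or 3 was left out, which was added after seeing the data. Leaving out 1 library gave 0 to 2 members. Over all genes 282 rose and 59 fell. DESeq2 gave 622 and 300, the replicate block 1276 and 920, the block without number 1, 2 or 3 gave 808 and 677, 253 and 103, and 1873 and 1402, no filter on low counts gave 133 lower, and leaving out 1 library gave 127 to 298 higher and 12 to 75 lower. For empty vector against WT, DESeq2 gave 44 higher and 33 lower and no filter 2 and 13, against 0 and 0. For fusion against WT, DESeq2 gave 4 members higher against 0, with 366 genes higher and 132 lower against 57 and 16, no filter gave 177 and 68, and leaving out a fusion library gave 1 to 65 higher and 0 to 19 lower.

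Most reversals came from leaving out 1 library, and none was of a value past the threshold. Over those fits, fusion against empty vector ranged from -0.27 to 0.21 for Gstm5 (0.16 without fusion replicate 1) and from -0.11 to 0.53 for Mgst3, empty vector against WT from -0.15 to 0.36 for Gstm5 and from -0.08 to 0.11 for Gstp1, and fusion against WT from -0.13 to 0.22 for Gstm2, -0.11 to 0.25 for Gstm5, -0.01 to 0.88 for Gstm6 and -0.37 to 0.27 for Mgst3. Gstm5 was also 0.04 with numbers 1 and 2 alone and 0.03 with the block and number 3 left out. With unique windows as length (chosen after seeing the data) the difference in share was -0.00431 percentage points for Mgst2 and 0.758 for the mu class. The cause of these changes was not tested. RLE factors, no filter, and the fit without robust estimation kept the calls of Gstm1 and Gstp1, and no WT comparison was run with pairing because WT shares 1 number. At 3 libraries a group no exact test could go below 0.1.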
